A study of Mus musculus with 4 samples.

Results

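The genes of sterol and fatty acid synthesis were followed in mouse Langerhans cells with and without the aryl hydrocarbon receptor (AhR). The set was a named list of 34 genes that runs from acetyl-CoA through mevalonate and squalene to cholesterol, adds the sensors that control these steps, and ends with the enzymes that make and modify fatty acids. Each gene was represented by the probe set that the platform annotation gives to it alone, taking the one with the highest mean over all arrays where there were several. By this rule 32 of the 34 genes were measured, among 12393 genes of the array, and Acat2 and Insig1 were not analysed here. The study compared Langerhans cells, which are dendritic cells resident in the epidermis, from mice that lack exon 2 of the AhR gene with those from wild-type C57BL/6 mice. There were 4 Affymetrix MOE430A arrays, 2 per genotype. Neither group of mice was treated, and the labels give no age and no number of animals per array. Cells of both genotypes came from ear skin, spent 16 hours in culture, and were sorted for viability and surface MHC class II, with purity above 95%, so both groups are cultured cells. One label describes culture of whole epidermal sheets and another culture of a cell suspension. The labels call the arrays of a genotype biological replicates without saying what separates them, so the p-values measure the spread between these arrays.

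Cholesterol is built from acetyl-CoA in a single chain of reactions. Mevalonate is made and converted to isoprenoid units, these are joined to squalene, squalene is closed to lanosterol, and a last series of enzymes trims lanosterol to cholesterol. Many genes of the chain, and genes of fatty acid synthesis such as Fasn, are targets of the sterol regulatory element-binding proteins (SREBP), which Srebf1 and Srebf2 encode. When membrane sterol is plentiful, Insig proteins hold the escort protein Scap and the SREBP in the endoplasmic reticulum. When sterol is low, Scap carries the SREBP to the Golgi, where it is cut and released to the nucleus. SREBP-2 acts mainly on sterol genes and SREBP-1c mainly on fatty acid genes, and the latter is also induced through the liver X receptors, which sense oxysterols. AhR is a ligand-activated transcription factor that pairs with Arnt.

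Most sterol synthesis genes were higher in AhR-deficient cells and fatty acid genes were mixed. The interval of Srebf1 included 0, as did that of the brightest probe set of Srebf2 but not that of its other probe set. Of the 32 measured genes, 22 were higher on each array without AhR than on either wild-type array, against 18.8% of the 12393 genes of the array. The reverse held for 3, against 16.6%, which were Insig2, Acss2 and Elovl5. The 17 measured enzymes between Hmgcs1 and Dhcr7 accounted for 15 of the 22, with 0 below. The set was chosen with earlier results of these data known, so these counts are descriptive only. The median difference on the log2 scale, AhR-deficient minus wild-type, was 0.24 over the 32 genes, 0.54 over the 17 sterol enzymes and 0.01 over all genes of the array. The largest differences were 1.22 for Fdps, 1.17 for Scd2 and 1.11 for Cyp51, which are ratios of 2.33, 2.25 and 2.16.

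No gene of the set passed the test on its own. In limma, 0 of the 32 genes had an adjusted p under 0.05, where 0.0323% of all genes did, and the smallest adjusted p was 0.254, for Mvd. At an unadjusted p under 0.05, 12 were higher, against 3.50% of all genes, and 1 was lower, against 3.04%. A difference of at least 0.5 was reached by 12 genes, against 2.11% of all genes, and one of at least 1 by 4, against 0.468%. All 12 of the former had arrays that did not overlap, as did 230 of the 261 genes of the whole array with such a difference. For 21 of the 32 genes the difference between genotypes was larger than the difference between the replicates in either genotype, against 23.4% of all genes. With whole cells sorted in bulk, more cells of a high-expressing kind and more RNA per cell cannot be told apart.

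**Figure D1:**
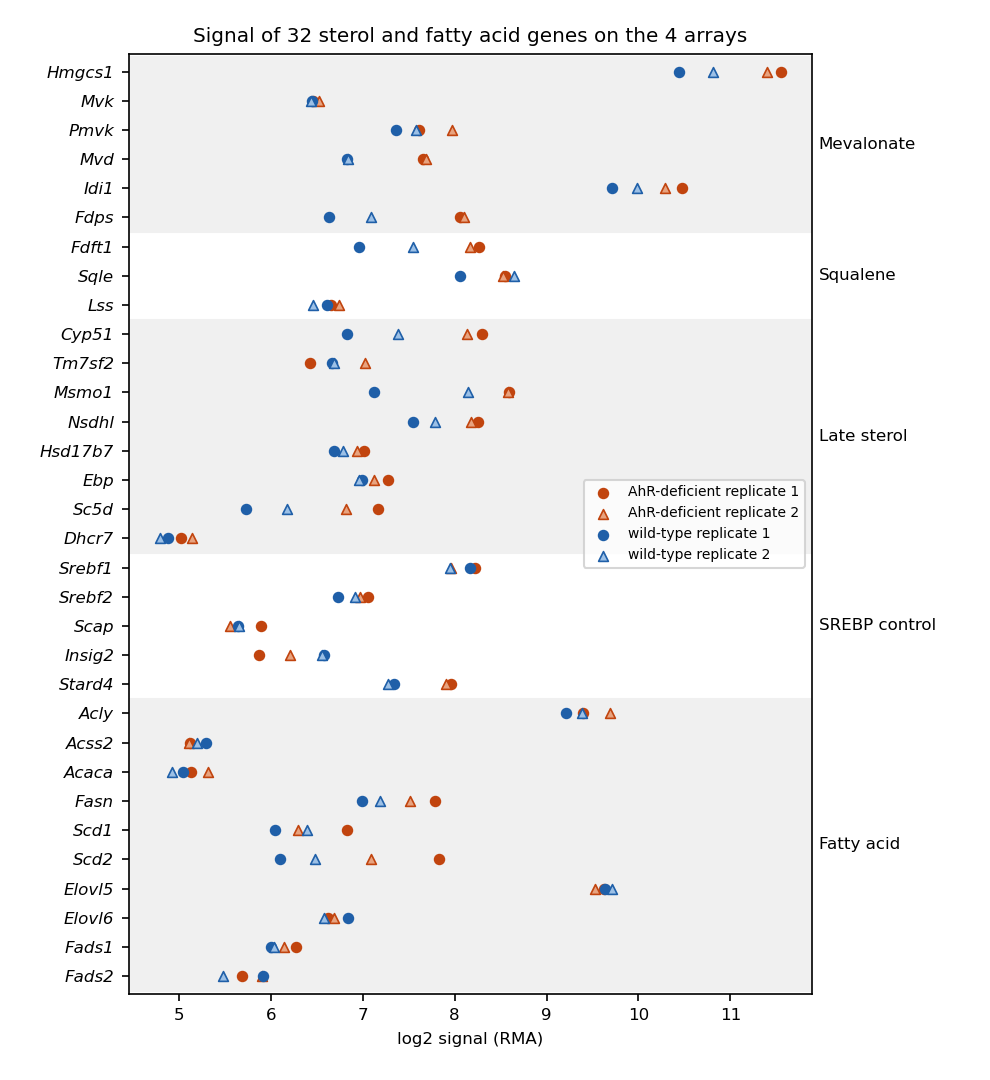
Log2 signal (horizontal axis) of the 32 measured genes (rows, in pathway order) on each of the 4 arrays, red for AhR-deficient and blue for wild-type, circles for replicate 1 and triangles for replicate 2. Red points lie to the right of both blue points in 22 rows, and wild-type replicate 1 is the lowest point in 18 rows; positions of different rows are not comparable levels.

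The wild-type arrays were not equal for these genes. Wild-type replicate 1 lay below wild-type replicate 2 for 13 of the 17 sterol enzymes, against 47.7% of all genes, and was the lowest of the 4 arrays for 12 of them, against 26.3%. The 17 enzymes had a mean log2 signal of 7.842 and 7.844 without AhR, and of 7.15 and 7.42 in the wild type. The AhR-deficient arrays were thus nearly level for this group and the wild-type arrays were 0.27 apart. Without wild-type replicate 1 the median over the sterol enzymes was 0.40, 16 of the 17 were above 0 and none reached 1. Without wild-type replicate 2 it was 0.68, and 6 enzymes reached 1. The median over all 32 genes was 0.24 without the first and 0.31 without the second. The 3′ minus 5′ log2 signal of the Actb control probe sets, a measure of RNA integrity, was 2.34 and 2.61 without AhR, 3.16 in wild-type replicate 1 and 2.65 in wild-type replicate 2. For Gapdh it was 2.24 and 2.19 without AhR and 2.60 and 1.97 in the wild type, so that the genotypes overlapped there and wild-type replicate 1 was again the highest. The part of RNA integrity in the sterol result was not tested.

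Other facts of the arrays bear on the set. The array medians of log2 signal lay between 5.60 and 5.63. Ahr had a signal of 8.55 and 8.60 without AhR and 7.61 and 8.23 in the wild type, and since the annotation does not place its probe sets in the deleted exon, this does not check the genotype. None of the 34 genes lies on the chromosome of Ahr. The Langerhans cell lectin Cd207 was bright on every array, with 11.21 and 11.71 without AhR and 11.00 and 12.06 in the wild type.

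Markers of Langerhans cells and of other cells that skin or the sort could hold were read on the same arrays, and in limma none of them passed at an adjusted p under 0.05. The counts without overlap that follow stand against 18.8% higher and 16.6% lower among all genes. The 12 Langerhans cell markers had a mean of 9.70 to 9.99 in AhR-deficient and 9.41 to 9.66 in wild-type cells and went both ways. The MHC class II genes H2-Aa, H2-Eb1 and H2-Ab1, their chaperone Cd74 and Itgax were higher without overlap, by differences of 1.31, 1.37, 1.24, 0.93 and 0.14. Csf1r and Cd24a were lower, with differences of -1.05 and -0.43. Of 14 keratinocyte markers 13 were measured, and 5 lay below the 25th percentile of every array. Their mean was 5.46 in AhR-deficient replicate 1 and 4.93 in replicate 2, against 4.77 and 4.88 in the wild type. The excess in the mean thus lay mostly on 1 array. In that list 5 were higher without overlap, with the smallest p-values for Dsp (1.32), Krt14 (0.57) and Krt5 (0.27), and Ivl was lower (-0.05). The 8 macrophage markers had means of 6.43 to 6.89 against 5.97 to 6.29. Of these, 5 were higher without overlap, among them Cd68 (1.12), C1qb (1.16) and C1qc (0.70), and Adgre1 was lower (-0.89). For 9 of 10 genes of dividing cells the mean was 6.12 to 6.30 against 5.92 to 5.99, and 5 were higher without overlap, among them Top2a (0.60), Birc5 (0.46) and Cdk1 (0.58), with 0 lower.

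The 7 measured of 10 T cell markers had means of 5.17 to 5.18 without AhR and 5.49 to 5.64 in the wild type. Cd3g, Cd2 and Cd3d were lower without overlap, with differences of -1.26, -0.70 and -0.56, and the other 4 overlapped. The 6 measured of 8 sebocyte markers, from the most lipogenic cells of skin, had means of 4.90 to 4.98 in both genotypes, all 6 were below the median of every array, and the smallest p-values were those of Scd3 (0.10), Elovl3 (-0.12) and Krt79 (0.07). Means of 5 melanocyte, 6 fibroblast and 4 mast cell markers differed between arrays by at most 0.13, 0.08 and 0.155. Without overlap, 1 sebocyte marker was higher, 0 melanocyte markers went either way, and 1 fibroblast marker was higher and 3 lower. Among mast cell markers 2 were higher and 1 lower, which was Kit, with 5.57 and 5.67 without AhR and 6.39 and 6.14 in the wild type. The genes with the smallest p-values there were Tyr (-0.09), Pmel (0.03) and Dct (-0.04), then Col1a1 (-0.21), Col3a1 (0.06) and Dcn (-0.04), and then Kit (-0.64), Mcpt4 (0.18) and Cma1 (0.14). The part of these cell types in the sterol result was not tested.

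Promoters of the set were read for known elements, since 15 of the 17 sterol enzymes were higher without overlap, against 18.8% of all genes. RefSeq windows of GRCm38.p6, from 250 bases before to 50 bases after an annotated start, were held for 27 of the 34 genes, 35 windows in all; Fdps, Fdft1, Sqle, Stard4, Scd1, Scd2 and Fads1 were not in the table. Both strands were searched for exact matches to 3 motifs, where N stands for any base. Sites that depart from these letters were not counted. The core of the sterol regulatory element, TCACNCCAC, was found in 1 of the 27 genes, Hmgcs1, against 1.44% of all 27025 genes with a window. The CCAAT box, which NF-Y binds and which stands beside many SREBP sites, was in 22 of the 27 genes, against 41.1% of all genes, and in 14 of the 15 sterol enzymes read. At least 2 CCAAT boxes were in 9 of those 15 enzymes, against 13.3% of all genes. The 15 enzymes read are not the same as the 15 that were higher without overlap. They include Acat2, whose expression was not analysed and which held no box, and Tm7sf2, which overlapped. They lack Fdps and Fdft1, which were higher. The core of the AhR response element, GCGTG, was in 18 of the 27 genes, against 35.2% of all genes. Members and all genes were not matched for base composition or for the number of annotated starts. The motifs overlapped each other at 2 places, a pair of CCAAT boxes in Fasn and a pair of GCGTG cores in Insig2. A match is a description of letters, and no binding was measured here.

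Of these stretches, 6 are shown, each the 250 bases upstream of a start. Capitals mark CCAAT boxes (CCAAT, or ATTGG on the other strand) and exact matches to the sterol element core. Hmgcs1 was chosen because it alone of the genes read held such an exact match to the sterol element core, and Mvd for the smallest p-value. Cyp51 and Msmo1 were taken as late sterol enzymes with a single and with several CCAAT boxes. Fasn was taken as the fatty acid synthase and Insig2 as the control gene that was lower. In GRCm38.p6 they are chr13:119690101-119690350 on the plus strand for Hmgcs1, and on the minus strand chr8:122443423-122443672 for Mvd, chr5:4104698-4104947 for Cyp51, chr8:64733579-64733828 for Msmo1, chr11:120824548-120824797 for Fasn and chr1:121332590-121332839 for the most upstream of 3 starts of Insig2.
Hmgcs1: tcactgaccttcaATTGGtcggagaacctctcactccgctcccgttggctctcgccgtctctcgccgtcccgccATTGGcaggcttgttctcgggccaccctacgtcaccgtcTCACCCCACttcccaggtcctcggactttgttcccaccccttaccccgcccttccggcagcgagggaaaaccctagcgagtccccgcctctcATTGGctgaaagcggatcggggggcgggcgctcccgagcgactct
Mvd: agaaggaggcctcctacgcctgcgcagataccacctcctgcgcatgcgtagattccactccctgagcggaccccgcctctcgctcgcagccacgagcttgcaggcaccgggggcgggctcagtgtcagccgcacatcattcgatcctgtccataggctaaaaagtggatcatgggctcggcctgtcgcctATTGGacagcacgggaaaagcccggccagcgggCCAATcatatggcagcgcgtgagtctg
Cyp51: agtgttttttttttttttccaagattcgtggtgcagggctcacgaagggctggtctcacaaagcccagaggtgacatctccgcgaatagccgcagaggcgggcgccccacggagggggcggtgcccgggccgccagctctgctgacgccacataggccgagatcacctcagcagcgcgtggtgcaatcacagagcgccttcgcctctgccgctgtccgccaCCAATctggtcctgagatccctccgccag
Msmo1: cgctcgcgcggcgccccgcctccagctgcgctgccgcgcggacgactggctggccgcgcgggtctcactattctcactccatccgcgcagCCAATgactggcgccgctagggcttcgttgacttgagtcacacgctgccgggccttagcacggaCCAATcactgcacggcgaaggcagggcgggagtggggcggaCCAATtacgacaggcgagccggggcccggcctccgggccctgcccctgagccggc
Fasn: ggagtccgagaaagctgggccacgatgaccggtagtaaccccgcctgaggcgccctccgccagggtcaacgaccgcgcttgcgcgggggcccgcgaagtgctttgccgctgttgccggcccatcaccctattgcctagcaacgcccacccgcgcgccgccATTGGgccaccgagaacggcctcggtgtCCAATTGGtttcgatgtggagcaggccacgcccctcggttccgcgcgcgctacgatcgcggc
Insig2: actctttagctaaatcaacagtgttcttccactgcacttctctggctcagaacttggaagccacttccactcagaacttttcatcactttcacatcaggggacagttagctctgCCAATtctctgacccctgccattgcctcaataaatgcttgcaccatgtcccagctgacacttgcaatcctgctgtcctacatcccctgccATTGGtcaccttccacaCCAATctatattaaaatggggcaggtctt

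In Hmgcs1 the sterol element begins 137 bases before the start and CCAAT boxes begin at 237, 176 and 45 bases before it. In Mvd the boxes begin 60 and 27 bases before the start, in Cyp51 the single box begins 29 bases before it, and in Msmo1 they begin 160, 96 and 55 bases before it. Each of these 4 sterol genes thus holds a box that begins within 60 bases of the start, and so do Fasn and the Insig2 window shown. The boxes of Pmvk and Lss, also sterol enzymes, begin further away, at 136 and 62 bases. The share of all promoters with a box at this distance was not counted. In Fasn the boxes begin at 90, 62 and 59 bases, the last pair overlapping. The window of Insig2 shown holds boxes at 136, 46 and 29 bases, and its other windows hold none.

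**Figure D2:**
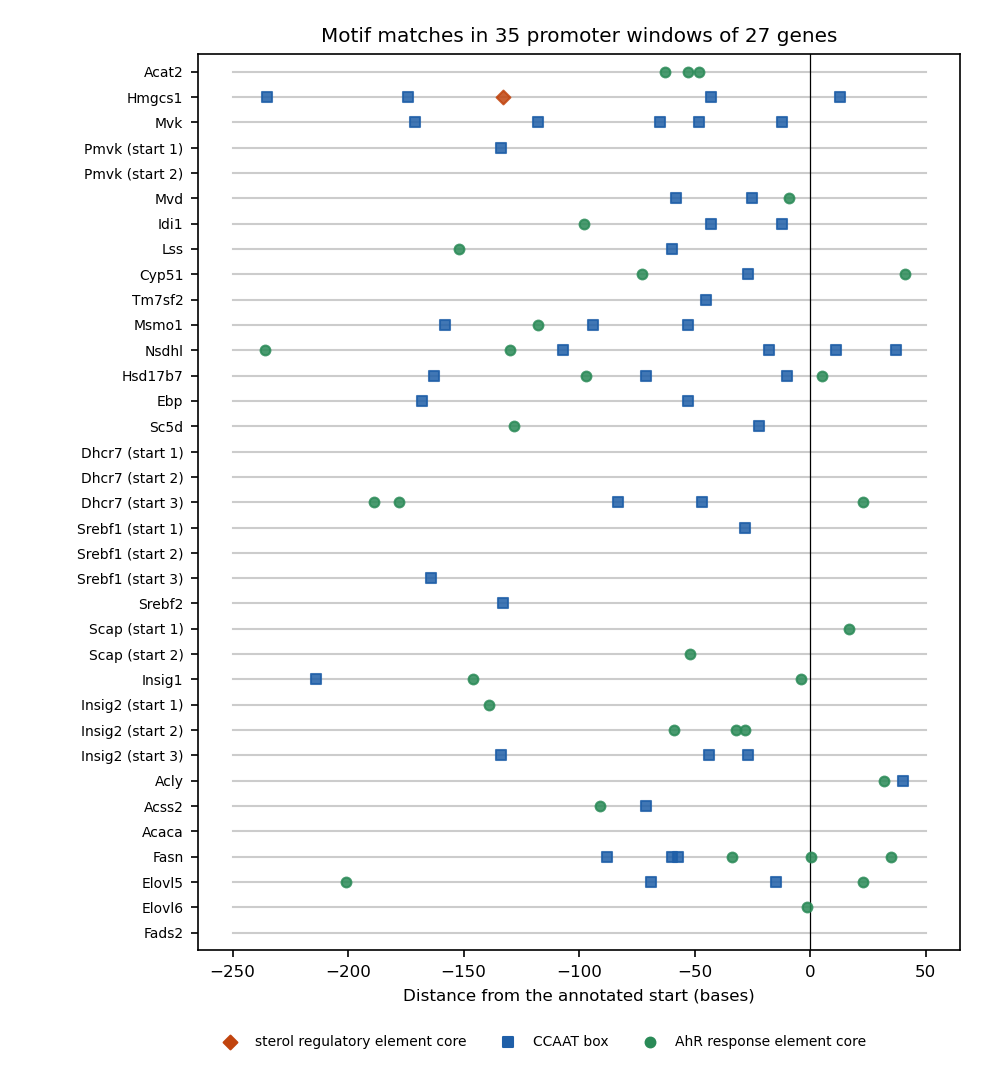
Positions of motif matches (horizontal axis, distance in bases from the annotated start at 0) in the 35 promoter windows of 27 genes (rows), with red diamonds for the sterol regulatory element core, blue squares for CCAAT boxes and green circles for the AhR response element core. The 1 diamond is in Hmgcs1, and squares are found in 22 of the 27 genes.

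Mevalonate steps came first in the pathway and had the highest median, 0.69 over 6 measured genes. All 6 were higher without overlap, against 18.8% of all genes. Hmgcs1 encodes the cytosolic HMG-CoA synthase, an early enzyme of the mevalonate steps. Its log2 signal was 11.55 and 11.39 without AhR and 10.44 and 10.81 in the wild type, a difference of 0.85 (SE 0.15, adjusted p = 0.533). The genotypes did not overlap, and its other 3 probe sets gave 0.88, 0.85 and 1.07, also without overlap. Mvk and Pmvk encode the kinases that phosphorylate mevalonate in turn. Mvk showed 6.46 and 6.53 against 6.45 and 6.44, a difference of 0.04 (95% interval -0.16 to 0.25), while its other probe set differed by 0.30. Pmvk was 7.61 and 7.97 against 7.37 and 7.58, a difference of 0.32 (SE 0.16), so that the lower AhR-deficient array stood just above the higher wild-type array.

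Mvd encodes the decarboxylase that yields isopentenyl diphosphate. It was 7.65 and 7.69 without AhR and 6.83 and 6.84 in the wild type, a difference of 0.84 (SE 0.07). Both replicate pairs were within 0.04, the tightest of the genes that differed by at least 0.5, and the value without wild-type replicate 1 was 0.83. Its other probe set differed by 0.18 and overlapped. Idi1, the isomerase of the isoprenoid unit, showed 10.47 and 10.29 against 9.71 and 9.99, a difference of 0.54 (SE 0.14), and 0.42 with its other probe set. Fdps, the farnesyl diphosphate synthase whose product is shared by sterols and prenylated proteins, showed 8.06 and 8.10 against 6.63 and 7.09. Its difference of 1.22 (SE 0.17, adjusted p = 0.436) was the largest of the set, and was 0.99 without wild-type replicate 1. A second Fdps probe set, below the 25th percentile on every array, differed by -0.01.

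The squalene steps differed among themselves, with a median of 0.19 over 3 genes, and of 0.48 without wild-type replicate 2. Fdft1, the squalene synthase that commits farnesyl diphosphate to sterols, was 8.26 and 8.16 without AhR and 6.96 and 7.54 in the wild type. The difference was 0.96 (SE 0.22) without overlap, and its other 3 probe sets gave 1.10, 0.20 and 0.14, each also without overlap. Sqle, the squalene epoxidase and a rate-limiting enzyme, was 8.55 and 8.52 against 8.06 and 8.64. Wild-type replicate 2 was the highest array for Sqle, and the difference of 0.19 (95% interval -0.39 to 0.77) became -0.10 without wild-type replicate 1. Lss, the lanosterol synthase, was 6.66 and 6.74 against 6.61 and 6.46, a difference of 0.16 (SE 0.09), with 0.15 and 0.21 in its other probe sets.

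Late sterol enzymes had a median of 0.40, and 7 of the 8 were higher without overlap, against 18.8% of all genes. Cyp51, the lanosterol demethylase, was 8.30 and 8.14 without AhR and 6.83 and 7.39 in the wild type, a difference of 1.11 (SE 0.21, adjusted p = 0.571). The genotypes did not overlap, and the other probe sets differed by 1.43 and 0.18. Msmo1, the methylsterol monooxygenase, was 8.59 and 8.58 against 7.12 and 8.14. Its wild-type replicates were 1.02 apart, and the difference of 0.95 (SE 0.36) was 0.44 with wild-type replicate 1 left out and 1.46 with replicate 2 left out. Nsdhl, a decarboxylating sterol dehydrogenase, was 8.26 and 8.18 against 7.54 and 7.79, a difference of 0.55 (SE 0.12).

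Sc5d, the lathosterol desaturase, was 7.16 and 6.82 without AhR and 5.73 and 6.18 in the wild type, a difference of 1.04 (SE 0.21) without overlap. Its second probe set overlapped and differed by -0.07. Ebp, the sterol isomerase that also binds emopamil, was 7.27 and 7.12 against 6.99 and 6.96, a difference of 0.23 (SE 0.09). Hsd17b7, a ketoreductase, and Dhcr7, which catalyses the last reduction to cholesterol, each differed by 0.24 without overlap. The Dhcr7 probe set lay below the median of every array. Tm7sf2, a sterol reductase, was 6.43 and 7.03 against 6.67 and 6.69, so that its AhR-deficient replicates lay on either side of the wild-type pair and the difference was 0.05 (95% interval -0.54 to 0.65).

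**Figure D3:**
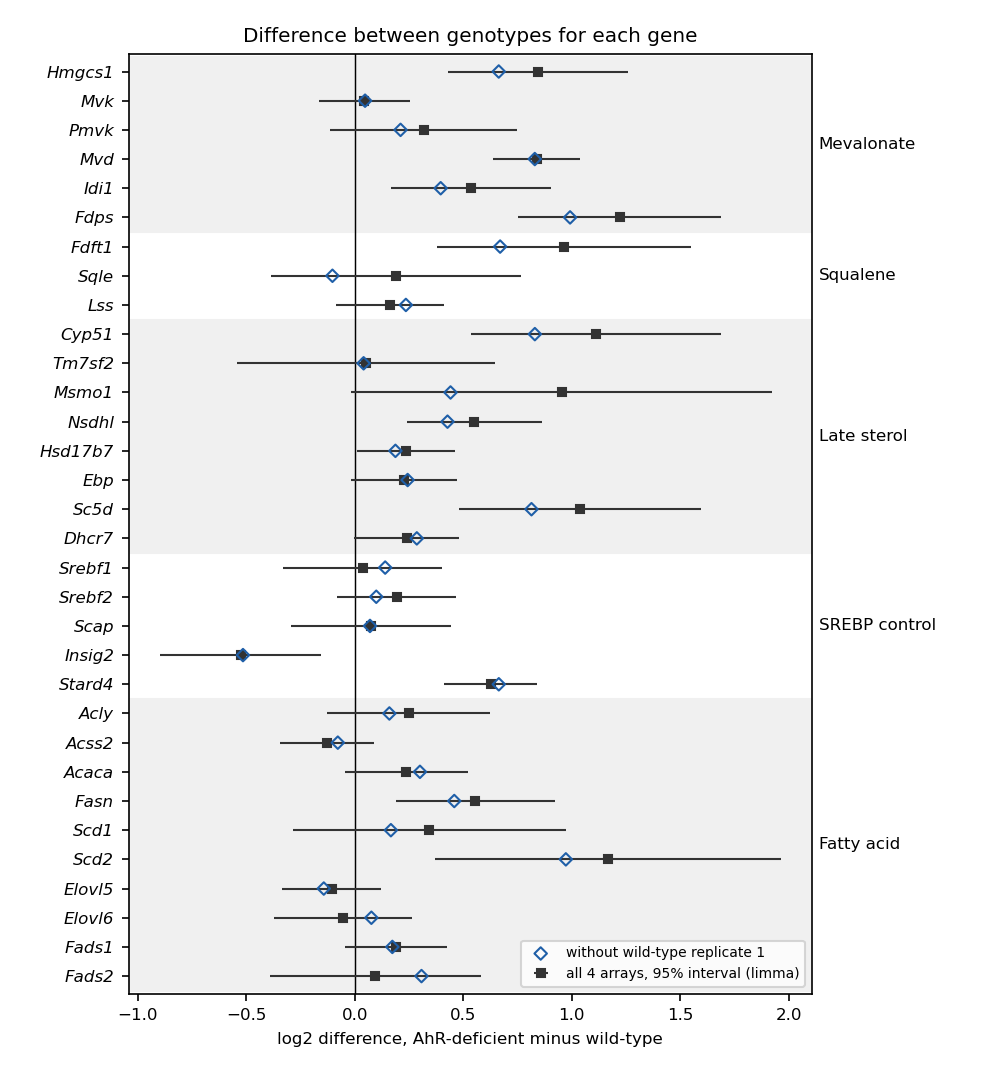
Log2 difference, AhR-deficient minus wild-type (horizontal axis), of each of the 32 genes (rows, in pathway order), as squares with limma's 95% interval from all 4 arrays and as open diamonds without wild-type replicate 1. Sterol enzymes lie to the right of 0, up to 1.22 for Fdps, and Insig2 lies at -0.53; the diamond of Sqle crosses to -0.10.

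The control genes did not share one direction, with a median of 0.07 over 5 measured, which ranged from -0.09 without AhR-deficient replicate 1 to 0.24 without replicate 2 of that genotype. Srebf1 was 8.22 and 7.96 without AhR and 8.16 and 7.95 in the wild type, which overlapped, and the difference was 0.04 (95% interval -0.33 to 0.40). The annotation does not say which of the SREBP-1a and SREBP-1c transcripts the probe set reads. Srebf2 was 7.06 and 6.97 against 6.73 and 6.91, a difference of 0.19 (SE 0.10), and 0.32 (SE 0.08, 95% interval 0.10 to 0.53) with its other probe set, both without overlap. Scap, the escort protein, was 5.89 and 5.55 against 5.64 and 5.65, a difference of 0.07 (95% interval -0.29 to 0.44). These are transcripts, and the cleaved proteins were not measured.

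Stard4 and Insig2 stood apart from the SREBP genes in opposite ways. Stard4, a soluble carrier of cholesterol and an SREBP target, was 7.96 and 7.91 without AhR and 7.34 and 7.27 in the wild type. The difference of 0.63 (SE 0.08, adjusted p = 0.374) was without overlap, was 0.56 in the second probe set, and was between 0.59 and 0.66 with any array left out. Insig2, which retains Scap and, unlike Insig1, is not known as a strong SREBP target, was 5.87 and 6.21 against 6.58 and 6.55. It was lower without overlap, by a difference of -0.53 (SE 0.14, adjusted p = 0.710). A second probe set, below the median of every array, was lower by a difference of -0.44 (SE 0.10). The other Insig2 probe set was about as bright as the first, overlapped and differed by 0.01, with 6.23 and 6.30 against 6.21 and 6.30. Insig1 was not analysed here, so the feedback target of the pair has no value.

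Fatty acid genes were split between enzymes that were higher and enzymes that overlapped or were lower. Of 10 measured, 5 were higher without overlap, against 18.8% of all genes, 2 lower, against 16.6%, and 3 overlapped. The median was 0.21, and 0.13 without AhR-deficient replicate 2. Scd2, a desaturase that puts a double bond into saturated fatty acids, was 7.83 and 7.09 without AhR and 6.10 and 6.49 in the wild type. The difference was 1.17 (SE 0.29, adjusted p = 0.706) without overlap, although the AhR-deficient replicates were 0.74 apart. It was 0.80 without AhR-deficient replicate 1, and the 2 dimmer Scd2 probe sets differed by 0.15 and -0.01 and overlapped. Fasn, the fatty acid synthase, was 7.78 and 7.51 against 6.995 and 7.19, a difference of 0.56 (SE 0.13, adjusted p = 0.681). Scd1, the related desaturase, was 6.83 and 6.29 against 6.04 and 6.40, which overlapped, with a difference of 0.34 (SE 0.23).

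Acly and Acaca were higher without overlap and Acss2 lower. Acly, which makes cytosolic acetyl-CoA from citrate, differed by 0.25 (SE 0.14), and its other probe sets ranged from -0.13 to 0.33. Acaca, the carboxylase that forms malonyl-CoA, differed by 0.24 (SE 0.10), and Acss2, which makes acetyl-CoA from acetate, by -0.13 (SE 0.08). The probe sets of Acaca and Acss2 were below the median of every array. A second Acss2 probe set, below the 25th percentile on every array, overlapped and differed by 0.10. Among the enzymes of long and polyunsaturated chains, Fads1 differed by 0.19 (SE 0.09) and Elovl5 by -0.11 (SE 0.08), while a second Elovl5 probe set gave 0.15. Elovl6, which extends palmitate, was 6.62 and 6.69 without AhR and 6.84 and 6.58 in the wild type, and its difference of -0.05 had a 95% interval of -0.37 to 0.27. Fads2 was 5.68 and 5.90 against 5.91 and 5.49, with a difference of 0.09 (95% interval -0.39 to 0.58). Both of these probe sets overlapped between genotypes. The second probe set of each gene was below the median of every array. That of Elovl6 overlapped and differed by 0.04. That of Fads2 was higher without overlap, by 0.25 (SE 0.08, 95% interval 0.03 to 0.46).

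Set beside each other by step, the sterol enzymes and the fatty acid genes gave means of different size. The mean signal of the 17 sterol enzymes exceeded the wild-type mean by 0.559 and 0.561 in the AhR-deficient arrays, and that of the 10 fatty acid genes by 0.31 and 0.20. The wild-type arrays spread by 0.14 to either side of their mean for the sterol enzymes and by 0.02 for the fatty acid genes. No test of the difference between these groups was made. Over the 31 further probe sets of these genes, 18 were higher without overlap, 1 was lower and 12 overlapped, with a median of 0.18. Of these, 7 lay below the 25th percentile of every array, and 8 had the opposite sign to the probe set that stood for the gene. These probe sets read genes already counted above, and the share without overlap among further probe sets of all genes was not counted.

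**Figure D4:**
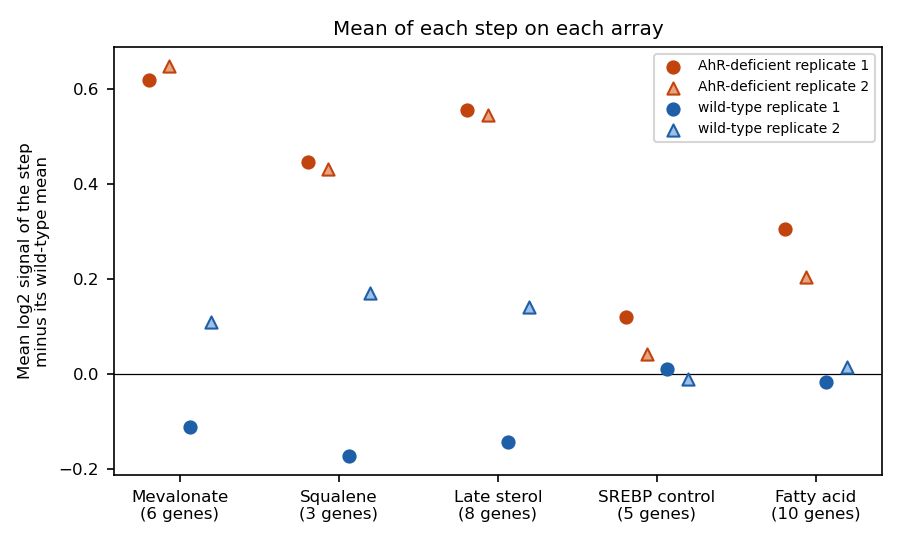
Mean log2 signal of the genes of each step minus the wild-type mean of that step (vertical axis), for the 4 arrays, red for AhR-deficient and blue for wild-type, circles for replicate 1 and triangles for replicate 2. The AhR-deficient arrays stand above both wild-type arrays in each of the 5 groups of genes, by least in the SREBP control genes, and wild-type replicate 1 is the lowest in the other 4 groups.

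Other genes of lipid metabolism outside the set had a median closer to that of all genes. The set and this list were chosen with earlier results of these data known, so the contrast is descriptive only. Of a list of 53 such genes, 35 were measured. In limma 0 passed at an adjusted p under 0.05, while an unadjusted p below 0.05 was reached by 3 higher and 3 lower genes. The shares of all genes at that p were 3.50% and 3.04%. The median was 0.10, with 10 higher without overlap, against 18.8% of all genes, and 3 lower, against 16.6%. Ggps1, which turns farnesyl diphosphate to geranylgeranyl diphosphate and so away from sterols, was lower, with 6.57 and 6.50 without AhR and 6.93 and 7.09 in the wild type, a difference of -0.48 (SE 0.09). Pcyt2, of phosphatidylethanolamine synthesis, was 7.31 and 7.23 against 6.75 and 6.89, a difference of 0.45 (SE 0.09). Tecr, the reductase that completes each round of chain elongation, differed by 0.56 (SE 0.11).

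Targets of the liver X receptors were also read. Among them Nr1h3, Lpcat3 and Mylip were counted with the other lipid genes as well. Of 10 listed, 3 of which belong to the set (Srebf1, Scd1 and Scd2), 3 were higher without overlap, 2 lower and none passed in limma at an adjusted p under 0.05, and 3 higher and 1 lower gene had an unadjusted p below 0.05. Among all genes 18.8% were higher without overlap, 16.6% lower, 3.50% higher at that p and 3.04% lower. Apoe was 6.14 and 6.03 against 4.89 and 5.05, a difference of 1.12 (SE 0.10), and Smpdl3a differed by 1.28 (SE 0.13). The cholesterol exporters Abca1 and Abcg1 were lower without overlap, by differences of -0.53 (SE 0.17) and -0.20 (SE 0.09).

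**Figure D5:**
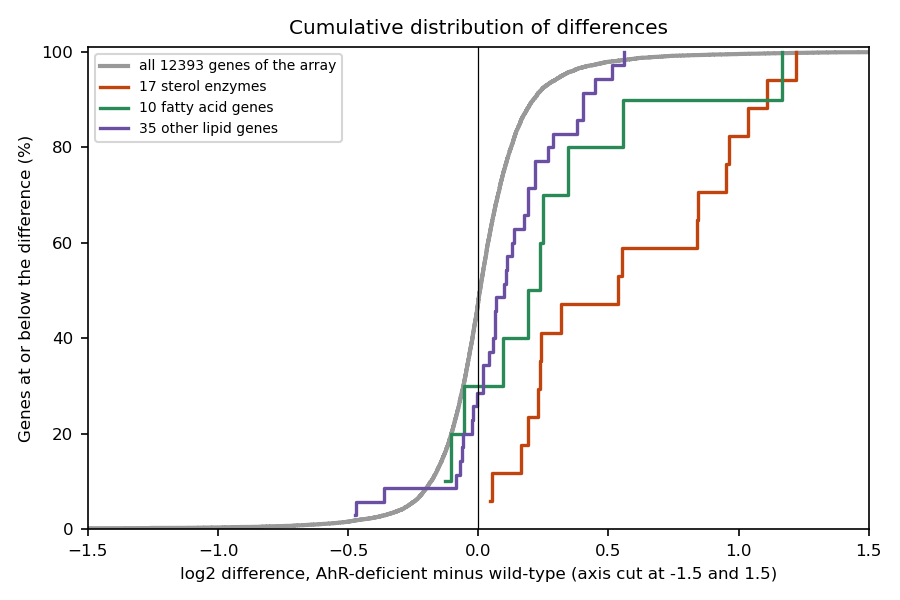
Cumulative share of genes in percent (vertical axis) against the log2 difference, AhR-deficient minus wild-type (horizontal axis), for all 12393 genes of the array (grey), the 17 sterol enzymes (red), the 10 fatty acid genes (green) and the 35 other lipid genes (purple). The red curve has the highest median, 0.54 against 0.21, 0.10 and 0.01.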

How the data were processed

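Expression was measured on 4 Affymetrix MOE430A arrays. The deposited values are log2 expression per probe set. They were made with affy and RMA, per the submitters' processing notes; RMA corrects background, normalises by quantiles and summarises probes. The sources used here give no versions, probe sequences or genome build. RMA on a log2 scale compresses the differences of dim probe sets, and the number of arrays limits the precision.

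Of 22690 probe sets, 64 controls were left out and 22626 tested in limma (version 3.58.1, R 4.3.3), by two-sided moderated tests from lmFit and eBayes (residual degrees of freedom 2, prior 2.27), with Benjamini-Hochberg adjustment over all of them. SE is the moderated standard error. A gene was represented by its brightest probe set with 1 gene symbol. Non-overlap means that both arrays of a genotype lie beyond both of the other. Named genes were every measured member, with all array values for those that differed by at least 0.5 or were the 2 most or 2 least different of a step, Ahr, and from each other list the 3 with the smallest p. Abca1, Abcg1, Cd207, Ivl, Adgre1, H2-Ab1, Csf1r, Cd24a and Itgax lie outside that rule and were named after their values were seen. Members and lists were chosen with earlier results of these data known. The fit was tested on simulated data. Replicate numbers are not said to pair arrays, so no block was used.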

Additional observations from a re-analysis of the deposited data

How the results depend on the processing

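No gene of the set and none of the other lipid genes had an adjusted p under 0.05 in limma under any alternative: array weights, a robust or trended eBayes, a block for replicate number, dim probe sets left out, quantile normalisation again, median centring, 16 added on the linear scale, other choices of probe set, or any array left out. With the dim probe sets left out, 29 genes remained and the late sterol median was 0.55. The mevalonate median was 0.49 with the mean of all probe sets of a gene and 0.43 once _s_at and _x_at probe sets were dropped. With the mean of all probe sets, 1 gene was lower without overlap. Elovl5 turned to 0.023 with that mean and to 0.15 without those endings; both settings change its probe set. The count higher without overlap, 22 in the main fit, was 19 with quantile normalisation again, against 17.1% of all genes. It was 20 with median centring, against 16.6%, and 20 once _s_at and _x_at probe sets were dropped, against 19.0%. Of the 29 genes left without dim probe sets, 20 were higher without overlap, against 18.6%. With 16 added or the mean of all probe sets the count was 22, against 18.8% and 19.5%. With 1 array left out, the count higher ranged from 23 to 25, against 32.4% to 38.9% of all genes. The count lower then ranged from 4 to 5, against 29.4% to 34.6%. The medians then ranged from 0.53 to 0.76 for mevalonate steps, from -0.093 to 0.24 for control genes and from 0.0645 to 0.20 for the other lipid genes. Also with 1 array left out, Srebf1 ranged from -0.0935 to 0.17, Scap from -0.0934 to 0.24, Tm7sf2 from -0.25 to 0.35, Fads2 from -0.12 to 0.31, Sqle from -0.10 to 0.48 and Elovl6 from -0.18 to 0.077, and so changed sign; none of these passed with or without the array.

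With the replicate block, 0 genes of the set were called; in this balanced design a block leaves each difference, and so the median of 0.24, as it is. Deviations of arrays with the same number correlated at -0.31 over all probe sets, and a crossed pairing, chosen after seeing the data, called 0 genes. The count of genes without overlap was not recomputed for settings that leave the values as they are.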
